A study of Rattus norvegicus with 4 samples.

Results

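Calcineurin, calmodulin and CaM kinase II transcripts were followed in rat soleus, a hindlimb muscle made mostly of slow fibres. The genes were chosen by symbol, as 9 listed genes for calcineurin subunits (Ppp3ca, Ppp3cb, Ppp3r1), calmodulin (Calm2, Calm3) and the CaM kinase II isoforms (Camk2a, Camk2b, Camk2d, Camk2g). Of these, 8 had a probe set annotated to that symbol alone, among 4736 genes named this way on the array, and Calm3 had none. Together they were read by 18 probe sets, of which 12 from 7 genes were bright enough to be tested, and no probe set named one of them beside another gene. The unloaded animals were female rats kept from standing on their hindlimbs for 10 h a day over 11 days (2 pools), and the controls were female rats with normal cage activity (2 pools). Each pool held total RNA from the soleus of 4 to 5 rats and was hybridised to 1 Affymetrix array, so a replicate is a pool of animals. The labels state neither strain nor age. Values are MAS5 signals, a linear intensity per probe set that is scaled per array, so a signal is comparable between arrays for the same probe set but not between probe sets.

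Calcineurin is a phosphatase that acts when calcium binds calmodulin. It is built from a catalytic A subunit (Ppp3ca or Ppp3cb) and a calcium-binding B subunit (Ppp3r1), and it dephosphorylates NFAT factors so that they enter the nucleus. CaM kinase II is a multisubunit kinase that calcium-calmodulin also switches on, and it can hold its activity by phosphorylating itself. In skeletal muscle both enzymes are known for linking the calcium of contraction to gene expression, calcineurin to the slow-fibre programme and CaM kinase II to MEF2 factors through class II histone deacetylases.

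The promoter windows of Ppp3cb and Camk2b are printed because they carry the member probe sets with the lowest p-value on each side of 0, upward and downward. They are RefSeq sequences of the rat assembly GRCr8 from 250 bases before to 50 after the gene start, at chr15:3809012-3809311 on the plus strand for Ppp3cb and chr14:85147895-85148194 on the minus strand for Camk2b. Capitals mark GC boxes (GGGCGG on either strand), some of which adjoin or share bases.
Ppp3cb: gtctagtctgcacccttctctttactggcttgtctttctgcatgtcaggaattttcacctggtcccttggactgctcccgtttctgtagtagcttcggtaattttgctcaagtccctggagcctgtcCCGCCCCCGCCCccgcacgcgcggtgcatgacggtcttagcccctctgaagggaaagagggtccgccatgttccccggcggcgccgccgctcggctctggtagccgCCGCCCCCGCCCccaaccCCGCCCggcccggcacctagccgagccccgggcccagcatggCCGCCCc
Camk2b: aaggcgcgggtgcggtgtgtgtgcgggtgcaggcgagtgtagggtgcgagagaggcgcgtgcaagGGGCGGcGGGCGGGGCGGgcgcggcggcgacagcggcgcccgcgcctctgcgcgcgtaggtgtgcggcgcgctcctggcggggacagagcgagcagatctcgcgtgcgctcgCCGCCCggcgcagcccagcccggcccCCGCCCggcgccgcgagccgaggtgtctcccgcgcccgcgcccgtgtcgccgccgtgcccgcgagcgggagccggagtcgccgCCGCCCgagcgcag
Both windows held 6 GC boxes. Of the 9 genes, 7 had an entry in the promoter table, and 6 of these 7 held at least 1 GC box, against 33.1% of 33469 rat promoter windows. The NFAT core GGAAA, the letters bound by calcineurin's best known target, was found on either strand in 2 of the 7 (Ppp3cb and Ppp3r1), against 62.7% of all windows. The E-box CANNTG was found in 4 of 7 (72.1% of all windows), the CRE half-site TGACG in 3 of 7 (21.2%), the full CRE TGACGTCA, which contains that half-site, in 0 of 7 (1.83%) and the MEF2 motif in 0 of 7 (3.29%). These matches describe letters in the windows. The arrays measured no promoter.

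The signal medians of the 4 arrays lay between 33.9 and 35.6. Over 5257 tested probe sets the log2 signals correlated at 0.988 between unloaded pools and 0.987 between control pools, while an unloaded and a control pool correlated at 0.973 to 0.974. Beside the soleus label, the slow-fibre myosin Myh7 read 9534.3 and 10728.4 in unloaded pools and 10907.4 and 11198.2 in control pools on its brighter probe set. With no other muscle on these arrays to compare, this could not test the label. Since whole muscle was measured, fewer cells of a type and less RNA per cell cannot be told apart. In the transcriptome as a whole 5.25% of tested probe sets passed (2.59% higher and 2.66% lower in unloaded pools), by limma with Benjamini-Hochberg adjustment over all tested probe sets and a threshold of 0.05.

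None of the 12 tested calcineurin, calmodulin and CaM kinase II probe sets passed that threshold, against the background of 5.25%. At an unadjusted p under 0.05 the count was 1 of 12, against 20.8% of all tested probe sets. Log2 fold changes (unloaded minus control, on the log2(signal + 9) scale) ran from -0.19 to 0.51, and 11 of the 12 were under 0.2 in size. Their median was -0.02, beside 0.00135 over all tested probe sets, and the median size was 0.14, beside 0.17. The 2 unloaded pools lay above both control pools for 2 of the 12 and below both for 3, while this was so for 25.5% and 25.3% of all tested probe sets (50.8% in either direction). Each estimate has a 95% interval from the fit, not adjusted for the number of probe sets. The interval lay inside a 1.5-fold change in either direction for 10 of the 12 and inside a 2-fold change for all 12, but inside a 1.2-fold change for none. For all tested probe sets the share inside was 59% at 1.5-fold, 92.2% at 2-fold and 3.14% at 1.2-fold. Each member's interval thus reached past a 1.2-fold change in at least 1 direction.

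**Figure D1:**
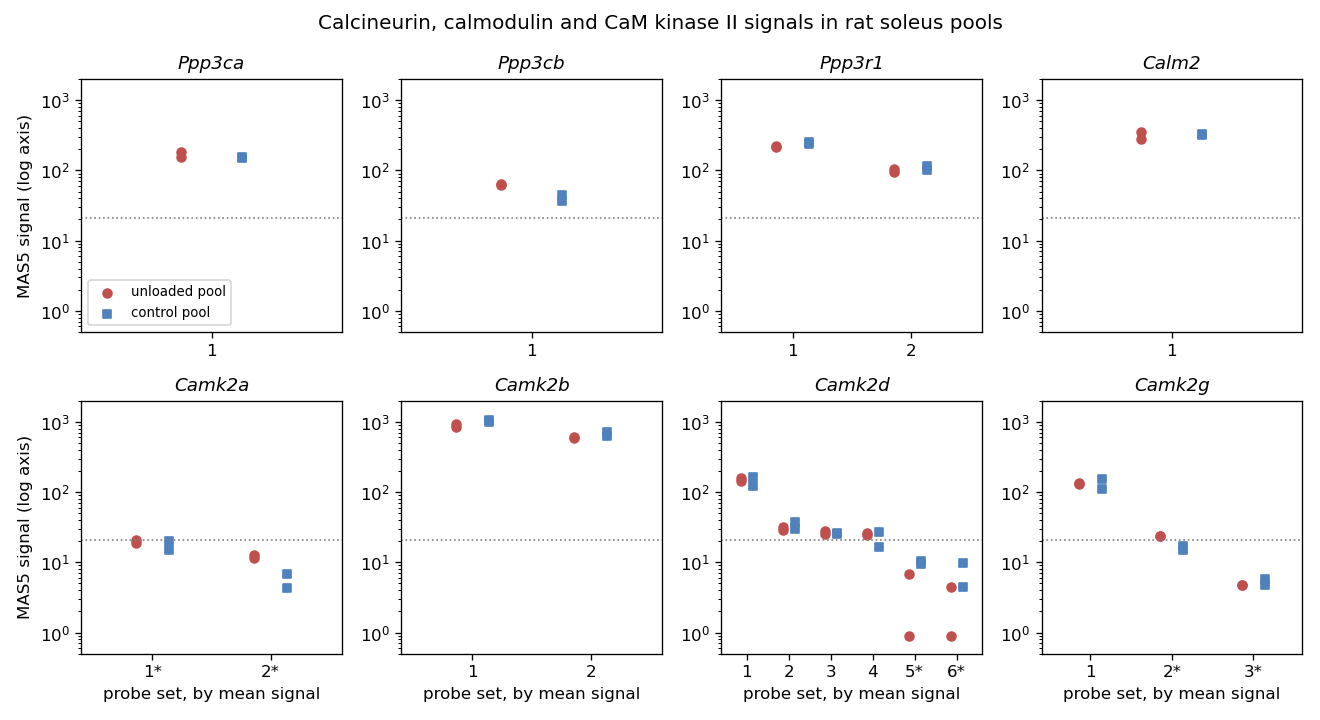
MAS5 signal (log axis) of each probe set of the 8 genes in the 2 unloaded pools (circles, left) and the 2 control pools (squares, right), with probe sets numbered from the brightest; the dotted line is the signal of 21.0 needed for a test, and an asterisk marks a probe set below it. Ppp3cb is the tested probe set with the clearest gap between the groups, at 61.4 and 63.1 in unloaded pools against 36.9 and 45.2 in control pools.

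Among the catalytic subunits, Ppp3cb, the A-beta form, had the largest difference of any tested member. Its signal was 61.4 and 63.1 in unloaded pools, against 36.9 and 45.2 in control pools. Both unloaded pools were above both control pools, and the means were 62.25 ± 1.2 and 41.05 ± 5.87 (SD, n = 2 pools each). The log2 fold change was 0.51 (SE 0.16, 95% interval 0.14 to 0.89), with an unadjusted p of 0.0139 and an adjusted p of 0.127 from limma. The interval excludes 0 for this probe set taken alone, and the difference did not pass once all probe sets were counted.

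Ppp3ca, the A-alpha form of the catalytic subunit, read 157.5 and 182.9 in unloaded pools and 149.7 and 153.2 in control pools. The unloaded pools were again above the control pools, but the lower one by little. The log2 fold change was 0.16 (SE 0.12, 95% interval -0.13 to 0.44, adjusted p = 0.539). Whether the A-beta and A-alpha forms differed in their response was not tested.

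The calcium-binding B subunit Ppp3r1, which the catalytic subunits need for activity, was read by 2 probe sets. The brighter gave 217.7 and 224.9 in unloaded pools, against 238.8 and 255.4 in control pools. Here both unloaded pools lay below both control pools, with a log2 fold change of -0.15 (SE 0.11, 95% interval -0.40 to 0.10, adjusted p = 0.480). The other probe set read 93.9 and 105.6 in unloaded pools and 102.5 and 116.8 in control pools, so the groups overlapped, and it gave -0.13 (SE 0.14, adjusted p = 0.680). Both probe sets of the B subunit thus had a negative estimate and both catalytic subunits a positive one, and none of the 4 values passed.

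Calm2, 1 of the genes that encode the calmodulin protein, read 350.5 and 282.0 in unloaded pools and 322.7 and 334.5 in control pools. The unloaded pools lay on either side of the control pools. The log2 fold change was -0.06 (SE 0.13, 95% interval -0.35 to 0.23, adjusted p = 0.840). Without unloaded pool 2 the estimate turned to 0.09.

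Camk2b, the beta isoform of CaM kinase II and a form that skeletal muscle is known to express, had the brightest probe sets among these genes. The brighter read 854.4 and 922.4 in unloaded pools, against 1044.7 and 979.9 in control pools. The other read 604.1 and 591.3 in unloaded pools, against 629.4 and 727.4 in control pools. On both probe sets each unloaded pool was below each control pool, with log2 fold changes of -0.19 (SE 0.09, 95% interval -0.40 to 0.03, adjusted p = 0.305) and -0.18 (SE 0.10, 95% interval -0.42 to 0.07, adjusted p = 0.385). Both probe sets were designed from the same transcript sequence, so they are not independent of each other. Averaged over both, Camk2b gave -0.18 (SE 0.08, 95% interval -0.37 to 0.01, adjusted p = 0.278).

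Camk2d, the delta isoform, was read by 6 probe sets, of which 4 were tested. The brightest gave 159.3 and 145.4 in unloaded pools and 122.5 and 166.1 in control pools, and the control pools enclosed the unloaded ones (log2 fold change 0.09, SE 0.16, adjusted p = 0.819). The 3 dimmer tested probe sets gave -0.10 (SE 0.19), 0.03 (SE 0.19) and 0.18 (SE 0.23), with adjusted p from 0.730 to 0.957 and signals between 16.7 and 37.6. All 4 overlapped between the groups and their signs differed. Leaving out 1 array turned the sign of each, to -0.12 for the brightest and 0.03 for the next without control pool 1, to -0.02 for the third without unloaded pool 2 and to -0.06 for the last without control pool 2.

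Camk2g, the gamma isoform, had 1 tested probe set, at 135.3 and 129.4 in unloaded pools and 109.5 and 153.7 in control pools. The control pools again enclosed the unloaded pools, and the log2 fold change was 0.03 (SE 0.17, 95% interval -0.36 to 0.41, adjusted p = 0.958). It was -0.20 without control pool 1 and 0.00 (-0.0047) without unloaded pool 1. A dimmer Camk2g probe set was under the level for testing, at 23.3 and 23.5 in unloaded pools against 14.8 and 16.8 in control pools. With no filter on dim probe sets it gave 0.39 (SE 0.18, adjusted p = 0.425). The dimmest read 4.70 to 5.80 on all 4 arrays.

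Camk2a, the alpha isoform that predominates in forebrain neurons and whose gene also yields a muscle anchoring protein without the kinase domain, had 2 probe sets and neither was bright enough for a test. The first read 19.0 and 20.5 in unloaded pools and 14.8 and 20.2 in control pools. The second read 12.9 and 11.4 in unloaded pools, against 6.80 and 4.30 in control pools. The groups overlapped on the first and not on the second. With no filter the second gave a log2 fold change of 0.54 (SE 0.16, 95% interval 0.14 to 0.95) and an adjusted p of 0.227, from control signals that lay below the offset of 9. Which product of the gene either probe set reads was not tested. The remaining Camk2d probe sets were as dim, at 6.80 and 0.9 in unloaded pools against 10.3 and 9.40 in control pools, and at 0.9 and 4.40 in unloaded pools against 9.70 and 4.50 in control pools.

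**Figure D2:**
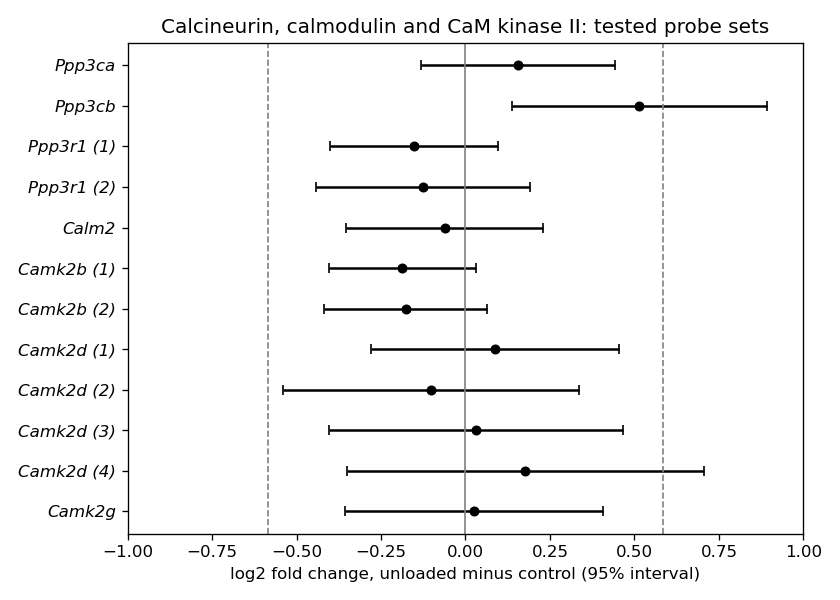
Log2 fold change (unloaded minus control) with its 95% interval for the 12 tested probe sets, numbered within a gene from the brightest; dashed lines mark a 1.5-fold change in either direction. Ppp3cb at 0.51 is the estimate whose interval lies wholly on 1 side of 0, and the upper ends of Ppp3cb and of the dimmest tested Camk2d probe set pass the 1.5-fold line.

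Near the filter, the dimmest tested member was a Camk2d probe set at 25.35 ± 0.919 in unloaded pools and 21.8 ± 7.21 in control pools (SD, n = 2). Just under it lay the Camk2g probe set with means of 23.4 ± 0.141 in unloaded pools and 15.8 ± 1.41 in control pools.

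Nerve markers were listed because Camk2a and Camk2b are also neuronal transcripts. Of 12 neuron and axon markers 10 had a probe set, and their 17 probe sets summed to 375.2 and 360.2 in unloaded pools and 395.0 and 395.3 in control pools. None of the 9 tested passed, and the list's median was -0.14. Of the probe sets for Nefl, Nefh and Snap25, which define neurons, 4 read under 9 on all 4 arrays, while another for Snap25 was tested, at 23.4 and 20.7 in unloaded pools against 29.2 and 37.9 in control pools (-0.45, SE 0.20, adjusted p = 0.256). Schwann cell markers (7 of 9 genes, 12 probe sets) summed to 902.8 and 952.6 in unloaded pools and 945.6 and 1007.0 in control pools, and none of 8 tested passed. The part of nerve and Schwann cell RNA in the Camk2b values was not tested.

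Of 14 further calcineurin, calmodulin and CaM kinase genes 9 had a probe set, and of 5 tested probe sets 1 was higher, none was lower and 4 did not pass. The one that passed belonged to Eef2k, a calmodulin-dependent kinase that phosphorylates elongation factor 2 and slows translation. It read 74.4 and 83.9 in unloaded pools, against 35.7 and 37.8 in control pools. Both unloaded pools were well above the control pools, and the log2 fold change was 0.94 (SE 0.15, 95% interval 0.59 to 1.30, adjusted p = 0.0137, limma). A brighter Eef2k probe set read 126.8 and 147.8 in unloaded pools against 92.4 and 93.7 in control pools, and gave 0.52 (SE 0.13), which did not pass (adjusted p = 0.0672). The call was lost whichever array was left out, with estimates of 0.87 to 1.02 and adjusted p of 0.0761 to 0.121, and with no filter on dim probe sets (adjusted p = 0.0663).

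Camk1, a monomeric CaM kinase, read 19.2 and 19.4 in unloaded pools and 26.5 and 27.0 in control pools. It gave -0.34 (SE 0.19, adjusted p = 0.370), although the unloaded pools were below the control pools. Camk4, a nuclear CaM kinase, read 0.6 to 2.00 on both of its probe sets and was not tested. The kinases Camkk1 and Camkk2, which activate other CaM kinases, had tested probe sets that did not pass.

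Of the inhibitors, anchors and partners, 13 of 22 genes had a probe set and 0 of 15 tested probe sets passed by limma. The list median was -0.06, and 2 of the 15 had an unadjusted p under 0.05, against 20.8% of all tested probe sets. Fkbp1a, the immunophilin through which tacrolimus blocks calcineurin, had 4 tested probe sets at -0.24 to 0.02, all short of the threshold (adjusted p = 0.325 to 0.963). Cabin1, a calcineurin-binding inhibitor, gave -0.06 (SE 0.11) and -0.09 (SE 0.15). Akap1, a mitochondrial anchoring protein, gave 0.33 (SE 0.13, adjusted p = 0.193) on 1 probe set and -0.03 (SE 0.12) on a brighter one. Hsp90b1, the endoplasmic reticulum chaperone of the HSP90 family, came closest to the threshold in this list. Its 3 tested probe sets gave -0.49 (SE 0.12, adjusted p = 0.0602), -0.26 (SE 0.13, adjusted p = 0.312) and -0.23 (SE 0.12, adjusted p = 0.33), and on each both unloaded pools were below both control pools. Akap12, a scaffold for signalling enzymes, read 4.60 to 22.6 on 2 probe sets and was not tested. The CaM kinase II inhibitors Camk2n1 and Camk2n2 and the calmodulin-binding neurogranin gene Nrgn were also too dim for a test. Gap43, which binds calmodulin in axons, gave -0.17 (SE 0.22, adjusted p = 0.738).

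Downstream, a list of NFAT, MEF2 and class II histone deacetylase genes with their kinases was read only in part. No listed NFAT factor or class II histone deacetylase had a probe set annotated to its symbol alone, and Mef2d was the MEF2 factor that had one. Probe sets with several symbols or none were not assigned to these genes. The genes read were Mef2d, the factors Crem, Creb1 and Gata4 and the kinases Csnk1a1, Csnk1d, Dyrk1a, Gsk3a, Gsk3b, Mapk14 and Prkaca, with estimates of -0.58 (Crem) to 0.07 (Mapk14). Of 27 listed genes 11 had a probe set, and among 22 tested probe sets 1 was lower and none higher. The list had a median of -0.11. Crem, a cAMP-responsive modulator of transcription, fell on a probe set that read 106.7 and 109.9 in unloaded pools against 171.5 and 162.2 in control pools. The unloaded pools were close together and well below the control pools (log2 fold change -0.58, SE 0.12, adjusted p = 0.0319). A pair of other tested Crem probe sets lay at -0.58 (SE 0.24, adjusted p = 0.222) and at -0.49 (SE 0.18, adjusted p = 0.184), short of the threshold. The Crem call was lost whichever array was left out, with estimates of -0.62 to -0.55. With all arrays it was also lost by limma with no filter (adjusted p = 0.0780), with no mean-variance trend (0.0707) and with pool number as a replicate block (0.0689). Mef2d read 156.2 and 183.1 in unloaded pools and 207.9 and 176.5 in control pools (-0.17, SE 0.14, adjusted p = 0.537). Dyrk1a, a kinase that opposes calcineurin by phosphorylating NFAT, gave -0.27 (SE 0.11, adjusted p = 0.228) on its brighter probe set.

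**Figure D3:**
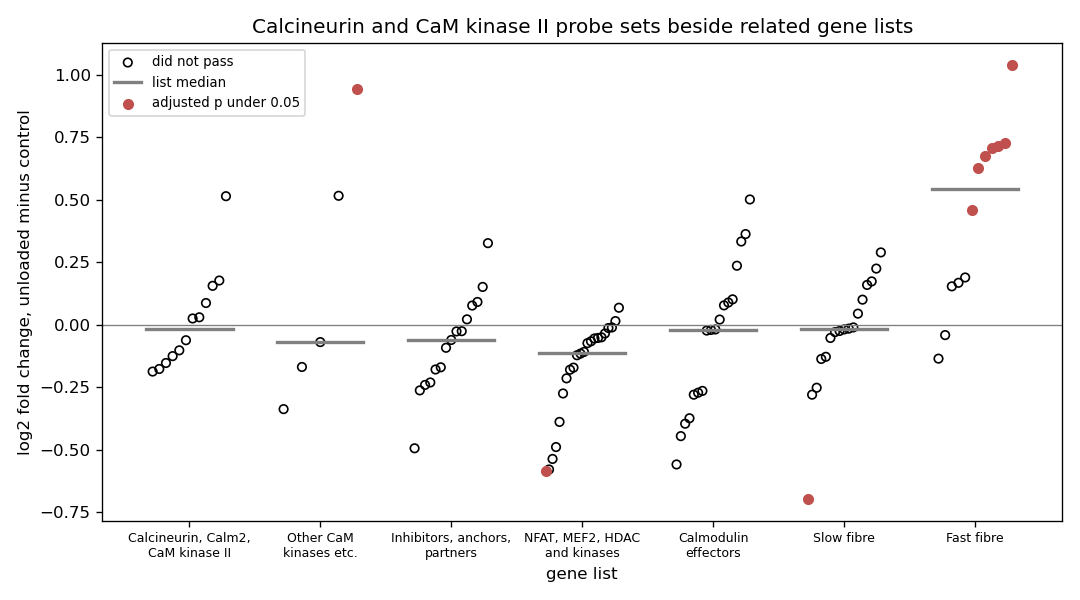
Log2 fold change (unloaded minus control) of the tested probe sets of calcineurin, Calm2 and CaM kinase II (left) and of 6 related gene lists, sorted within each list; filled points passed an adjusted p of 0.05 and grey bars are list medians. The fast-fibre list has 7 filled points and a median of 0.54, while the calcineurin and CaM kinase II set has no filled point and a median of -0.02.

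Among enzymes of muscle that bind calmodulin, 15 of 23 genes had a probe set, and none of 18 tested probe sets passed by limma. The list median was -0.02, and 4 of the 18 had an unadjusted p under 0.05, against 20.8% of all tested probe sets. Those 4 were from Mylk2, Phka1, Atp2b1 and Sptan1. Mylk2, the skeletal myosin light chain kinase, read 532.5 and 451.8 in unloaded pools against 581.6 and 600.4 in control pools. Both unloaded pools were lower, and the estimate of -0.26 (SE 0.11) had an adjusted p of 0.226. Phka1, the muscle phosphorylase kinase subunit, gave -0.37 (SE 0.15, adjusted p = 0.201), the plasma membrane calcium pump Atp2b1 -0.40 (SE 0.15, adjusted p = 0.192), and the membrane skeleton protein Sptan1 0.50 (SE 0.19, adjusted p = 0.179). Phkg1, in the same list, gave 0.24, 0.08 and 0.33 on its tested probe sets, and none passed.

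Fibre-type genes, which calcineurin and MEF2 activity are known to influence, are given beside these values. In the fast list 7 of 12 tested probe sets were higher in unloaded pools and none was lower, with a median of 0.54. They belonged to the fast troponins Tnni2 (1.04, SE 0.14), Tnnt3 (0.68, SE 0.11) and Tnnc2 (0.46, SE 0.08), the fast calcium pump Atp2a1 (0.73, SE 0.10), the fast light chain Myl11 on both probe sets (0.71, SE 0.10, and 0.72, SE 0.09) and Myh2. The other 5 did not pass, at -0.04 for Myh1, -0.14 for Pvalb, 0.15 for Myh4, 0.17 for Myl1 and 0.19 for Casq1. In the slow list 1 of 17 was lower, the light chain Myl6b (-0.70, SE 0.15, adjusted p = 0.0426), none was higher, and the median was -0.02. Both unloaded pools lay above both control pools for 4 of these 17 and below for 6. The shares over all tested probe sets were 25.5% and 25.3%. Myh2, the type 2A myosin, read 2862.6 and 2697.1 in unloaded pools against 2077.8 and 1552.9 in control pools (0.63, SE 0.14, adjusted p = 0.0403). The Myh2 call was lost with quantile normalization (adjusted p = 0.0544), no filter (0.147), no mean-variance trend (0.132) and without control pool 2, unloaded pool 1 or unloaded pool 2 (0.168 to 0.234). The Tnnc2 and Myl6b calls were lost whichever array was left out, with estimates of 0.45 to 0.47 and -0.77 to -0.62. Every other fast-fibre call was lost without unloaded pool 2, and also without at least 1 of control pool 2 and unloaded pool 1. With no filter Atp2a1 (adjusted p = 0.0538), Tnnt3 (0.0636), Tnnc2 (0.0667) and Myl6b (0.125) did not pass. With no mean-variance trend Atp2a1 (adjusted p = 0.0614), Tnnt3 (0.0737), Tnnc2 (0.112), Myl6b (0.0581) and the brighter Myl11 probe set (0.0598) did not pass. Myh7, the slow myosin, gave -0.13 (SE 0.09, adjusted p = 0.485). Over the 6 related lists together 10 of 89 tested probe sets passed (8 higher, 2 lower). That count was 6 when control pool 1 was left out, 1 when control pool 2 or unloaded pool 1 was, and 0 when unloaded pool 2 was, and it was 3 with no filter or with no mean-variance trend.

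Markers of other cells of muscle were read on the same arrays. Endothelial (4 tested probe sets), adipocyte (4), leukocyte (8) and blood (5) markers had none past the threshold. An unadjusted p under 0.05 by limma was found for 2 adipocyte, 2 blood, 0 endothelial and 0 leukocyte probe sets, against 20.8% of all tested probe sets. The adipocyte pair differed in sign (Cfd -0.61, Fabp4 0.31), and the blood pair was positive (Alas2 0.38, Hbb 0.21). Smooth muscle markers had a list median of 0.25, and for 6 of 9 tested probe sets both unloaded pools were above both control pools, with none below. Over all tested probe sets the shares were 25.5% above and 25.3% below. More than 1 of the 6 was from Acta2, so they are not 6 separate markers. At an unadjusted p under 0.05 there were 4 of the 9, against 20.8% of all tested probe sets. They were from Acta2 (0.82, and 0.40 with an adjusted p of 0.0554), Tagln (0.50, adjusted p = 0.0601) and Myh11 (0.56, adjusted p = 0.179). Each of these genes had another tested probe set. That of Acta2 gave 0.25 (SE 0.11), with both unloaded pools above both control pools. Those of Tagln (0.22, SE 0.16) and Myh11 (-0.0076, SE 0.20) overlapped between the groups, so for these genes the probe sets differed. The 1 of the 9 that passed was from Acta2, smooth muscle actin, at 225.7 and 270.3 in unloaded pools against 120.7 and 153.2 in control pools (0.82, SE 0.15, adjusted p = 0.0221). This Acta2 call was lost whichever array was left out, with estimates of 0.66 to 0.98. With all arrays it was also lost by limma with no filter (adjusted p = 0.0945) and with no mean-variance trend (0.0736). The smooth muscle list summed to 6543.2 and 6914.1 in unloaded pools and 6005.8 and 6234.6 in control pools, most of it from Des, desmin, which skeletal fibres also express and which gave 0.00421 (SE 0.08). Without Des the sums were 2476.1 and 2647.9 in unloaded pools and 1856.0 and 2077.8 in control pools. Most of each of these sums came from Acta2, so they largely follow 1 gene. Its brightest probe sets read 889.0 and 934.1 in unloaded pools against 699.5 and 833.2 in control pools, and 875.1 and 892.6 against 639.1 and 701.2. The part of smooth muscle RNA in the calcineurin, CaM kinase and fibre-type values was not tested.

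**Figure D4:**
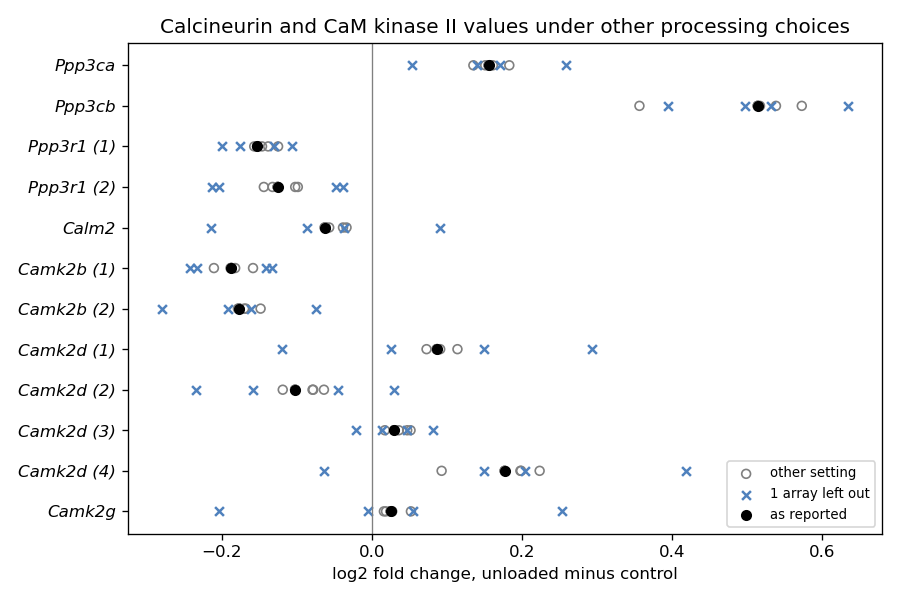
Log2 fold change (unloaded minus control) of the 12 tested probe sets as reported (filled), with 1 array left out (crosses) and under the other processing choices (open circles). Both catalytic subunits stay right of 0 and Ppp3r1 and Camk2b left of 0 in every setting drawn, whereas Calm2, Camk2d and Camk2g lie on both sides. The crosses follow from the order of the pools. Where the groups do not overlap, leaving out 1 array cannot turn the sign. Where the pools of 1 group enclose the other group, leaving out an enclosing pool can turn it by construction.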

How the data were processed

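Soleus RNA of 2 unloaded and 2 control pools was measured on Affymetrix arrays. The deposited values are 1 linear intensity for each probe set and array, made with MAS5 per the submitters' processing notes (version and settings not given in the sources used here). A common scale per array assumes a like total mRNA signal, and dim MAS5 signals are noisy.

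Of 8799 probe sets, 59 control probe sets were left out. Names came from the platform annotation, updated by gene ID to RefSeq (assembly GRCr8): 7006 probe sets had 1 symbol, 308 several and 1426 none. Signals were taken as log2(signal + 9), 9 being the 25th percentile, which understates changes of dim transcripts. Probe sets whose mean signal reached 21.0 (40th percentile of all means) numbered 5257 and were tested with limma 3.58.1 in R 4.3.3 (lmFit, eBayes with a mean-variance trend; 2 residual and 5.80 prior degrees of freedom), with Benjamini-Hochberg adjustment over all of them. The steps were run on data simulated under the fit's own assumptions. That run cannot show how they perform where the arrays depart from those assumptions. With 2 pools a group an exact permutation test cannot go below p = 0.333 (two-sided), so none is given. Related lists were described by counts and medians.

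The members and lists were chosen with earlier results of these data known. Named were all members, listed genes that passed, a fixed set whatever their values (of which Mef2d, Camk4, Camk1, Fkbp1a, Akap12, Myh7, Myh2, Nrgn and Gap43 had a probe set) and, chosen after their values were seen, further examples from the lists. Genes were not ranked by likeness of pattern, which 4 arrays cannot order. Pool number was no block, since the labels state no shared source for same-numbered pools. Such pools did not deviate together (correlation of deviations -0.04). Alternatives were other normalizations, offsets, filters, thresholds, no trend, the block, gene means and leaving out each array. Plots used matplotlib 3.10.9 (Python 3.11.15).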

Additional observations from a re-analysis of the deposited data

How the results depend on the processing

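No calcineurin, calmodulin or CaM kinase II probe set passed in any alternative run: quantile or median scaling, offsets at the 10th or 50th percentile, no filter (18 probe sets) or one at the 60th percentile (8, without Ppp3cb), no mean-variance trend, a threshold of 0.10, gene means (7 genes), the replicate block, or any 1 array left out. Of 140 such values 133 kept their sign and 7 reversed, all with 1 array left out. The filters, the mean-variance trend and the replicate block do not alter a fold change, so their values could not reverse. Leaving out 1 array gave -0.21 to 0.0909 for Calm2, -0.12 to 0.29, -0.23 to 0.0302, -0.0209 to 0.0812 and -0.0639 to 0.42 for the Camk2d probe sets and -0.20 to 0.25 for Camk2g. It gave -0.24 to 0.19 and -0.21 to 0.25 for the brightest and dimmest Fkbp1a probe sets (the brightest 0.0032 with median scaling), -0.45 to 0.11 for Gap43 and -0.19 to 0.0893 for the dimmer Myh7 probe set. Ppp3cb ranged from 0.36 to 0.63, with adjusted p from 0.118 to 0.354 over 11 alternatives.

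The count over all probe sets was 276, against 90 with no filter, 113 with no trend, 458 at a threshold of 0.10, 165 with pool number as a replicate block and 67 to 84 with 1 array left out. For the related lists the count of 10 became 3 with no filter, 3 with no trend, 9 with quantile normalization, where Myh2 did not pass, 8 with the replicate block, where Crem and Myl6b did not pass, and 0 to 6 with 1 array left out. The causes were not tested, except that leaving out an array lowers the residual degrees of freedom by construction. Signals under about 20 limit what can be said of Camk2a and of the dim Camk2d and Camk2g probe sets.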
